A study of Pyrus betulifolia with 6 samples.

Results

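The genes described here are the ERF and AP2 transcription factors of *Pyrus betulaefolia* roots, a plant family named after its AP2 DNA-binding domain. They were chosen by name. Of the 37815 genes listed, 187 had a description that contained "ethylene-responsive transcription factor", "dehydration-responsive element-binding" or "AP2-like". The deposited annotation listed the AP2 domain for 183 of these. The wording also caught 2 other proteins whose names hold the same letters, a GDAP2-like protein (LOC125477839) and an RPAP2-like phosphatase (novel338), and neither was called, so that 185 genes carry an AP2/ERF name. Among those, a DREB 2A locus (novel2297) and an ERF 5-like gene (LOC125473133) had no AP2 domain listed.

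*P. betulaefolia* is a pear grown as a rootstock. Seed-raised plants labelled as wild type were kept in nutrient solution, and root tips were taken after 24 h without boron (B deficiency) or with boron supplied (control), both groups being grown alike in other respects. RNA of 3 libraries per group was sequenced. The labels call the libraries biological replicates, but the sources do not say how plants or boxes were divided among them. Several plants shared a box, so the libraries of a group may come from the same box. Box and treatment could then not be told apart. The p-values therefore measure the spread between these libraries.

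ERF proteins bind short promoter elements, such as the GCC box of defence genes or the DRE element of cold and drought genes, and act as activators or repressors. Ethylene is made by ACC synthase and ACC oxidase. Its receptors keep the kinase CTR1 active while no ethylene is bound, and with the hormone present EIN2 and EIN3 switch on genes that include ERF genes. Many ERF genes also respond to jasmonate, wounding, cold, drought or low oxygen, while the AP2-type and ANT-type genes, with a repeated domain, are known mainly for organ identity and meristem growth. The Arabidopsis family is divided into numbered groups, and each pear gene was placed in a group by the number or name in its description, not by a tree.

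Values are FPKM, in which the fragments of a gene are corrected for its length and for library size. Differences are B deficiency minus control on the log2(FPKM + 0.1) scale, from limma with adjustment over all 28129 genes averaging 0.5 FPKM or more, and they understate the change of genes with low FPKM. Calls of higher or lower needed a log2 fold change of 1 or more in either direction together with an adjusted p under 0.05. The FPKM sum of a library ranged from 951246 to 971102, with 31364 to 31645 genes above 0. B deficiency library 2 lay apart from the rest of its group. Its Pearson correlation across genes was 0.959 with library 1 and 0.962 with library 3, against 0.976 between libraries 1 and 3 and 0.975 to 0.976 among the control libraries.

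All 13 root tip marker genes were expressed, among them SHORT-ROOT, SCARECROW, PLT2, SOMBRERO and BEARSKIN genes, the PLT2 genes being members of the AP2/ERF family too. Their summed level was 97.7, 112.5 and 103.5 FPKM in B deficiency, against 130.4, 132.4 and 136.0 FPKM in control roots. In 8 of the 13 (61.5%, against 26.6% of all genes tested), every B deficiency library was below every control library. In 0 it was above, against 18.5% of all genes tested. The root cap gene BEARSKIN2 (LOC103956584) was called lower (log2 fold change -1.02, adjusted p = 0.000934), and limma called none higher, also at an unadjusted p under 0.05. In bulk tissue, fewer cells of a type and less RNA per cell cannot be told apart, and the part of these marker levels in the results was not tested. Of 32 leaf markers, 4 were listed at 0 in every library, and their summed level was 639.3, 578.9 and 617.5 FPKM in B deficiency, against 575.0, 585.3 and 609.6 FPKM in control roots, nearly all of it from a gene for the small subunit of Rubisco (LOC103928816).

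More ERF and AP2 genes were higher than lower under B deficiency. Of the 187 members, 128 reached the minimum FPKM and were tested, and 27 of these were called higher and 10 lower. The higher calls were 21.1% of the members tested, against 4.37% of all genes, and the lower calls were 7.81%, against 3.83% of all genes, of which 8.19% were called in either direction. The middle of the family stayed near 0, with a median log2 fold change of 0.04, beside -0.05 over all genes tested. Every B deficiency library lay above every control library in 46 members (35.9%, against 18.5% of all genes) and below in 31 (24.2%, against 26.6% of all genes). With no minimum fold, 39 members were higher and 20 lower at an adjusted p under 0.05, where the share over all genes was 12% and 15.4%. The minimum FPKM was reached only through the B deficiency libraries by 3 members, 2 of them called higher, and only through the control libraries by 6, of which 3 were called lower. Near-identical pear copies share reads, which the software splits between them by estimation, so values of close family members are uncertain.

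**Figure D1:**
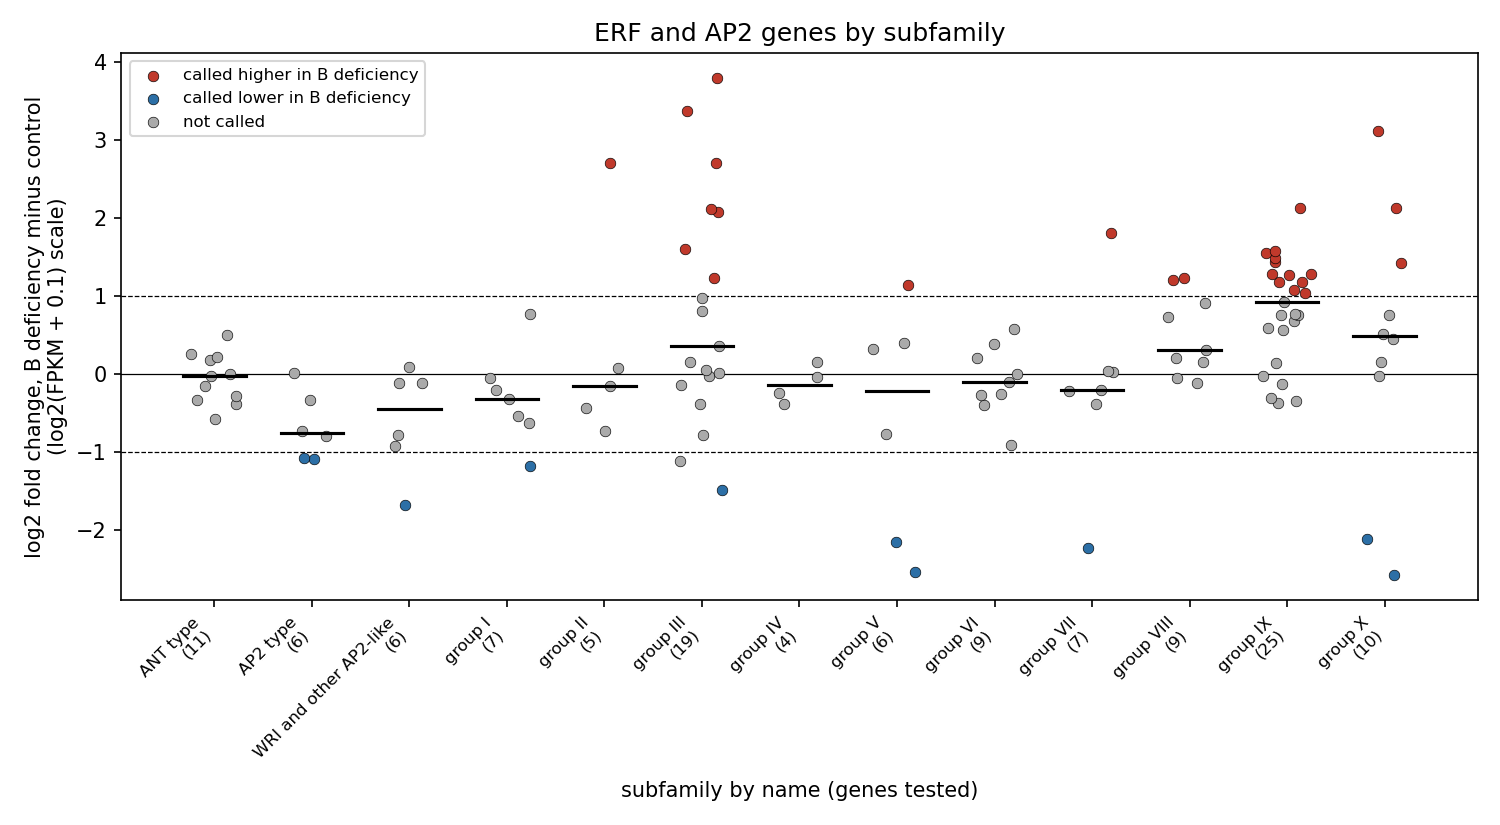
Log2 fold change (B deficiency minus control, on the log2(FPKM + 0.1) scale) of each tested AP2/ERF gene in 13 subfamilies by name, with the number tested in parentheses, the median as a bar and the minimum fold of 1 as dashed lines. Groups III, IX and X hold 22 of the 27 genes called higher, and 0 genes of group IX were called lower.

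Group IX holds the ERF1, ERF2 and ERF5 genes, whose Arabidopsis members act on GCC-box genes after ethylene, jasmonate or pathogen signals, and it had the most calls. Of its 37 genes, 25 were tested, 12 were called higher (48%, against 4.37% of all genes) and 0 lower (against 3.83%). The median log2 fold change was 0.93. In 19 of the 25 (76%, against 18.5% of all genes), each B deficiency library exceeded every control library. These 19 also had an adjusted p under 0.05. None of the 25 had every B deficiency library below, against 26.6% of all genes. At an unadjusted p under 0.05, limma gave 19 higher and 0 lower, beside 4597 and 6518 of all 28129 genes tested.

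The FPKM of all group IX genes summed to 995.1, 1131 and 992.1 in B deficiency, against 567.3, 567.7 and 568.6 in the control. The control libraries were nearly equal, and all 3 B deficiency libraries lay far above them. The group held 19.6% ± 1.22 of the FPKM of all AP2/ERF genes in B deficiency and 11.7% ± 0.0559 in control roots (SD, n = 3 each).

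**Figure D2:**
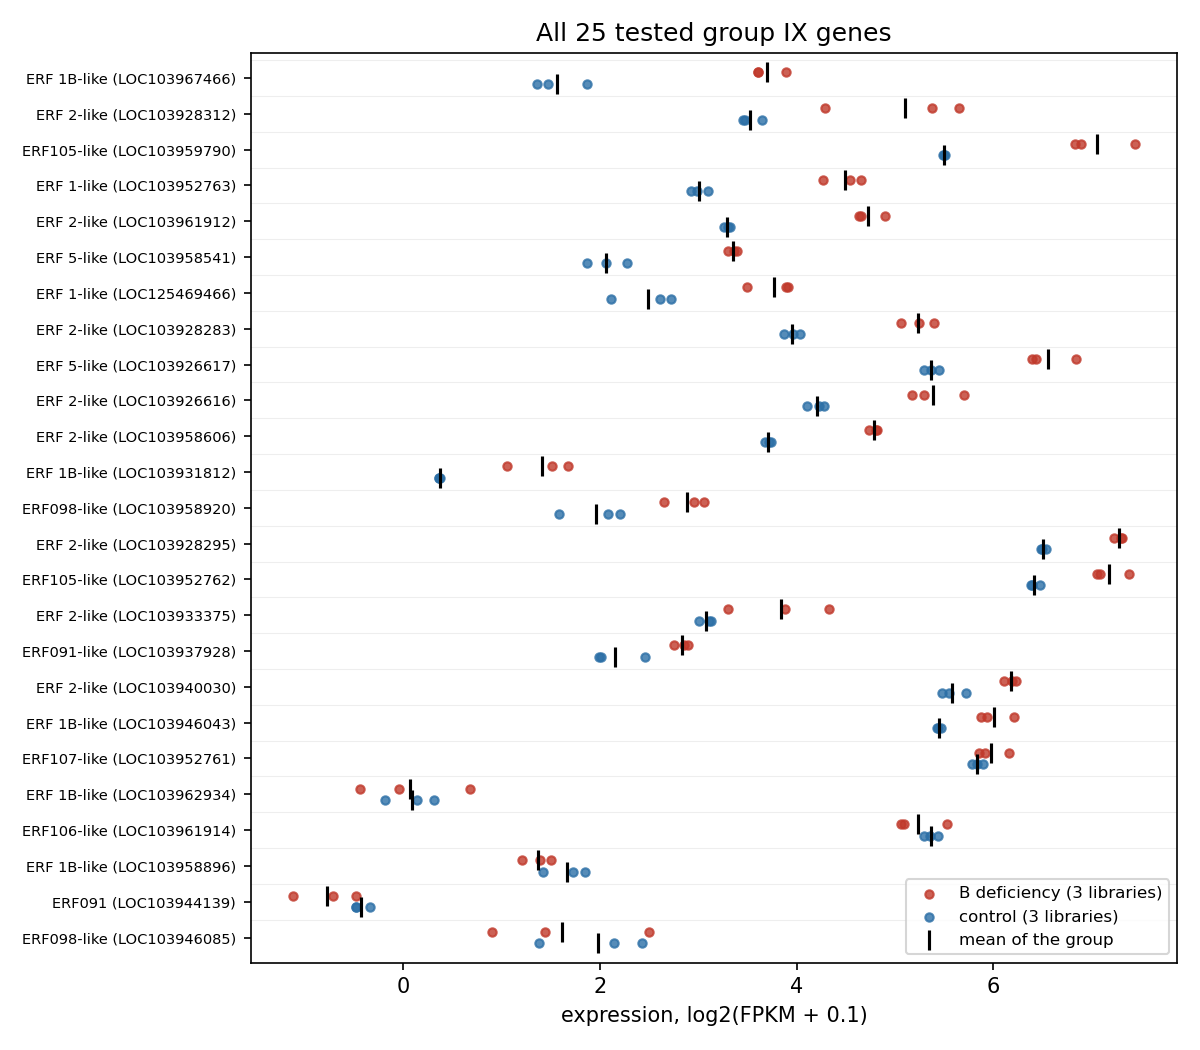
Expression of the 25 tested group IX genes in each library on a log2(FPKM + 0.1) axis, with B deficiency in red above control in blue, group means as vertical bars, and genes ordered by fold change. In the upper 19 genes the groups do not overlap, and all 19 lie higher in B deficiency.

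ERF105 and ERF5 genes were among the most abundant of the group. ERF105-like (LOC103959790) had 118.4, 174.0 and 114.0 FPKM in B deficiency, against 44.9, 45.5 and 45.2 FPKM in control roots (log2 fold change 1.55, standard error 0.151, adjusted p = 0.000445). The B deficiency libraries lay well above the control, and library 2 was the highest. The other ERF105-like gene (LOC103952762) had 132.9, 166.4 and 135.4 FPKM in B deficiency, against 88.6, 84.2 and 83.1 FPKM in control roots, and stayed under the minimum fold (log2 fold change 0.76, adjusted p = 0.00108). Arabidopsis ERF105 is known for its part in the cold response. ERF 5-like (LOC103926617) had 86.2, 114.7 and 84.0 FPKM in B deficiency, against 41.1, 39.2 and 43.5 FPKM in control roots (log2 fold change 1.19, adjusted p = 0.000536). A scarcer ERF 5-like gene (LOC103958541) had 9.80, 10.2 and 10.5 FPKM in B deficiency, against 4.73, 3.56 and 4.07 FPKM in control roots (log2 fold change 1.29, adjusted p = 0.000393). Arabidopsis ERF5 acts in the response to chitin and in leaf growth under osmotic stress. The neighbours in name ERF106-like (LOC103961914) and ERF107-like (LOC103952761), of similar abundance, overlapped between the groups, with log2 fold changes of -0.13 and 0.14.

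The 8 ERF 2-like genes tested were all higher in every B deficiency library than in any control library, and 5 of them were called. Arabidopsis ERF2 is an activator of GCC-box genes that responds to jasmonate. The most abundant gene of group IX, ERF 2-like LOC103928295, had 157.5, 150.1 and 158.2 FPKM in B deficiency, against 89.7, 92.5 and 90.2 FPKM in control roots (log2 fold change 0.77, adjusted p = 6.31e-05). Its groups were clearly apart although it stayed under the minimum fold. ERF 2-like LOC103958606 had 28.2, 26.6 and 27.9 FPKM in B deficiency, against 13.1, 13.3 and 12.7 FPKM in control roots, with little spread in either group (log2 fold change 1.08, standard error 0.062, adjusted p = 5.34e-05). The calls also took in LOC103961912 (log2 fold change 1.43), LOC103928283 (1.28) and LOC103926616 (1.18). In ERF 2-like LOC103928312, B deficiency library 2 stood low, with 50.2, 19.5 and 41.4 FPKM in B deficiency, against 12.4, 10.9 and 11.01 FPKM in control roots (log2 fold change 1.58, adjusted p = 0.01). Without library 2, its log2 fold change was 1.99.

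Of the ERF1 genes, ERF 1B is a direct target of EIN3 in Arabidopsis, where it joins ethylene and jasmonate signals. ERF 1B-like LOC103967466 had 12.1, 12.1 and 14.8 FPKM in B deficiency, against 2.68, 2.47 and 3.55 FPKM in control roots, the largest fold change of group IX (log2 fold change 2.13, standard error 0.159, adjusted p = 0.00015). The much more abundant LOC103946043 had 61.3, 74.1 and 58.5 FPKM in B deficiency, against 44.2, 43.2 and 42.9 FPKM in control roots, and was not called (log2 fold change 0.57, adjusted p = 0.0039). ERF 1B-like LOC103931812 was called at a log2 fold change of 1.04, which was 0.99 without B deficiency library 1 and 0.92 without library 2. The ERF 1B-like genes LOC103958896 and LOC103962934 overlapped between the groups, so the 5 tested under this name ranged from -0.30 to 2.13. Both ERF 1-like genes were called. LOC103952763 had 23.2, 19.2 and 25.1 FPKM in B deficiency, against 7.83, 7.53 and 8.46 FPKM in control roots (log2 fold change 1.48, adjusted p = 0.000153), and LOC125469466 gave 1.28.

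Group III, the DREB1 and TINY group, held the 2 largest rises of the family, in an ERF022-like and an ERF017-like gene. Of the 30 group III genes, 19 were tested, with a median log2 fold change of 0.37. Of these, 7 were called higher (36.8%, against 4.37% of all genes) and 1 lower (5.26%, against 3.83%). Group III summed to 198.2, 262.2 and 213.9 FPKM in B deficiency, against 157.0, 163.8 and 164.2 FPKM in control roots, so that every B deficiency library was above the control. Arabidopsis DREB1 proteins, also called CBF, switch on cold-response genes through the DRE element, and TINY links drought responses with growth.

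ERF022-like (LOC103947947) had 12.3, 13.2 and 14.2 FPKM in B deficiency, against 0.88, 1.37 and 0.50 FPKM in control roots. This was the largest rise of any member, with a mean 14.4 times the control mean (log2 fold change 3.80, standard error 0.301, adjusted p = 0.00019). Both genes named ERF017 rose, and no member was named ERF018. ERF017-like (LOC103950248) had 11.8, 19.2 and 14.2 FPKM in B deficiency, against 1.08, 1.43 and 1.51 FPKM in control roots (log2 fold change 3.38, standard error 0.207, adjusted p = 6.84e-05). ERF017 (LOC103929680) had 9.81, 18.1 and 11.2 FPKM in B deficiency, against 1.68, 2.59 and 1.42 FPKM in control roots (log2 fold change 2.71, standard error 0.284, adjusted p = 0.000628). Library 2 was the highest of its group in both, and the lowest B deficiency library was still well above the highest control library.

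ERF014-like (LOC103932979) of group II had 16.3, 30.2 and 20.2 FPKM in B deficiency, against 3.16, 3.58 and 2.93 FPKM in control roots (log2 fold change 2.71, standard error 0.215, adjusted p = 0.00019). Arabidopsis ERF014 is known from defence against bacteria and fungi. The pear gene was the 1 call among 5 group II genes tested (20% higher, against 4.37% of all genes). The most abundant gene of group II, ERF011-like LOC125475476, went the other way without reaching the minimum fold, with 32.8, 37.7 and 34.1 FPKM in B deficiency, against 56.4, 61.2 and 56.7 FPKM in control roots (log2 fold change -0.74, adjusted p = 0.000413). A second ERF011 gene (LOC103950435) was at a similar level and overlapped between the groups (log2 fold change 0.08).

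DREB 1A (LOC103933308) had 8.21, 14.6 and 6.88 FPKM in B deficiency, against 2.31, 1.87 and 2.08 FPKM in control roots (log2 fold change 2.12, adjusted p = 0.00139). TINY-like LOC103943886 had 6.46, 9.41 and 7.04 FPKM in B deficiency, against 3.73, 2.91 and 2.85 FPKM in control roots (log2 fold change 1.24, adjusted p = 0.00243). The other 5 genes named TINY were not called. They included the most abundant gene of group III, TINY LOC103944834, with 39.3, 41.7 and 42.9 FPKM in B deficiency, against 42.8, 49.1 and 45.1 FPKM in control roots (log2 fold change -0.14). Just under the minimum fold stood TINY LOC125469980, with 27.2, 35.7 and 29.9 FPKM in B deficiency, against 14.7, 15.3 and 16.9 FPKM in control roots (log2 fold change 0.97, adjusted p = 0.000855). It passed that fold with median-of-ratios scaling.

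Both ERF021-like genes were called at low levels, reached the minimum FPKM only through their B deficiency values, and were not tested with a minimum of 1 FPKM. LOC103928186 had 1.59, 1.08 and 1.49 FPKM in B deficiency, against 0.52, 0.13 and 0.19 FPKM in control roots (log2 fold change 2.09, adjusted p = 0.0125). LOC103947945 had 0.78, 1.69 and 0.86 FPKM in B deficiency, against 0.33, 0.16 and 0.38 FPKM in control roots (log2 fold change 1.61, adjusted p = 0.0306). The second call rested on all libraries together, since its adjusted p was between 0.0559 and 0.0875 when B deficiency library 2 or 3 or any control library was left out. The 1 lower call of group III was ERF027-like LOC103936146, with 3.37, 4.46 and 3.24 FPKM in B deficiency, against 10.1, 10.95 and 10.2 FPKM in control roots (log2 fold change -1.49, standard error 0.137, adjusted p = 0.000363). The ERF027-like genes LOC103933305 and LOC103960523 overlapped between the groups (0.37 and 0.16).

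**Figure D3:**
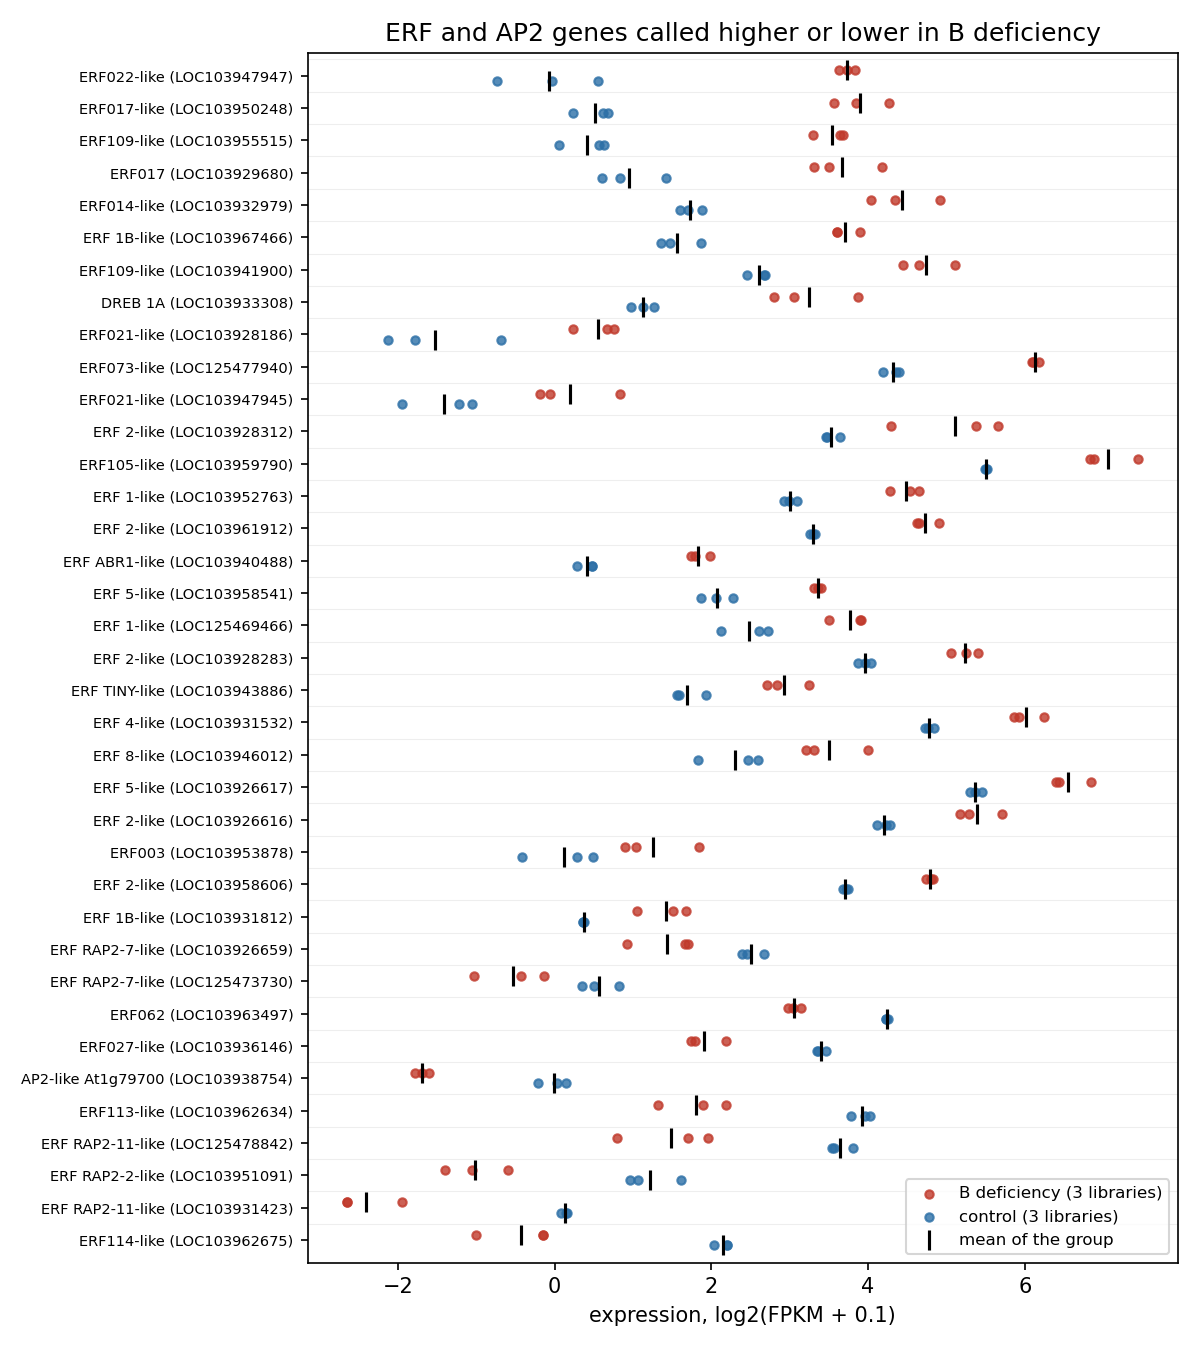
Expression of the 37 called genes in each library on a log2(FPKM + 0.1) axis, with B deficiency in red above control in blue and group means as vertical bars, ordered by fold change. The 27 genes called higher are above and the 10 called lower below, and in each of them the groups do not overlap.

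Group X, which in Arabidopsis holds wound and regeneration genes, had calls in both directions. Of its 14 genes, 10 were tested, 3 were called higher (30%, against 4.37% of all genes) and 2 lower (20%, against 3.83%). Arabidopsis ERF109 responds to jasmonate and wounding and promotes lateral root formation through auxin synthesis. ERF109-like LOC103955515 had 12.4, 12.7 and 9.73 FPKM in B deficiency, against 1.38, 0.94 and 1.45 FPKM in control roots (log2 fold change 3.12, standard error 0.193, adjusted p = 7.16e-05). ERF109-like LOC103941900, the most abundant gene of the group, had 25.1, 34.4 and 21.6 FPKM in B deficiency, against 6.28, 6.33 and 5.39 FPKM in control roots (log2 fold change 2.13, standard error 0.169, adjusted p = 0.00019). Another gene of that name was listed at 0 in every library. ABR1-like LOC103940488, named after an Arabidopsis repressor of abscisic acid responses, had 3.85, 3.23 and 3.35 FPKM in B deficiency, against 1.29, 1.29 and 1.12 FPKM in control roots (log2 fold change 1.42, adjusted p = 0.000861).

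The lower calls of group X were an ERF114 and an ERF113 gene. ERF114-like LOC103962675 had 0.80, 0.80 and 0.40 FPKM in B deficiency, against 4.51, 4.01 and 4.48 FPKM in control roots, the largest fall of any member (log2 fold change -2.58, standard error 0.266, adjusted p = 0.000586). Arabidopsis ERF114 is known from bud outgrowth. ERF113-like LOC103962634 had 4.46, 2.40 and 3.6 FPKM in B deficiency, against 13.6, 15.4 and 16.2 FPKM in control roots (log2 fold change -2.12, standard error 0.212, adjusted p = 0.000507). The other 3 ERF113-like genes were not called. LOC103950400 among them had 18.8, 20.8 and 15.6 FPKM in B deficiency, against 11.8, 10.6 and 9.92 FPKM in control roots (log2 fold change 0.76, adjusted p = 0.00399), so genes of the same name lay on opposite sides of the control.

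Group VII is the oxygen-sensing group, whose Arabidopsis proteins RAP2.12, RAP2.2 and RAP2.3 are degraded when oxygen is present and switch on hypoxia genes when it is low. Its 7 genes had the highest summed level of any subfamily and held 51.0% ± 3.40 of the FPKM of all AP2/ERF genes in B deficiency and 58.3% ± 0.196 in control roots (SD, n = 3 each). They summed to 2783, 2529.7 and 2777 FPKM in B deficiency, against 2839.6, 2832 and 2802 FPKM in control roots. RAP2-12-like LOC103930679, which ranked 55 among all genes by mean FPKM, had 1179.5, 1139 and 1163 FPKM in B deficiency, against 1149, 1136 and 1118 FPKM in control roots, and the groups overlapped (log2 fold change 0.03, adjusted p = 0.636). RAP2-3 LOC103959375 had 637.4, 558.7 and 645.9 FPKM in B deficiency, against 795.0, 810.6 and 797.7 FPKM in control roots (log2 fold change -0.39, adjusted p = 0.00483). It was below the control in every library but under the minimum fold, and RAP2-3-like LOC125477475 overlapped between the groups (log2 fold change 0.04).

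The calls of group VII were 1 in each direction (14.3% of 7 tested, against 4.37% higher and 3.83% lower of all genes). ERF073-like LOC125477940 had 68.2, 72.3 and 68.7 FPKM in B deficiency, against 21.0, 20.3 and 18.2 FPKM in control roots (log2 fold change 1.81, standard error 0.070, adjusted p = 1.32e-05). Its adjusted p was the smallest of any member. In Arabidopsis, ERF073 is the hypoxia-induced gene HRE1, and its relative ERF071, or HRE2, is likewise known from hypoxia. ERF071-like LOC103967196 had 67.9, 68.9 and 68.0 FPKM in B deficiency, against 78.7, 76.7 and 80.2 FPKM in control roots (log2 fold change -0.20, adjusted p = 0.0169). RAP2-2-like LOC103951091 was called lower, with 0.28, 0.56 and 0.38 FPKM in B deficiency, against 1.99, 2.95 and 1.85 FPKM in control roots (log2 fold change -2.23, adjusted p = 0.00227), and was tested only through its control values.

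Group VIII includes genes for ERF3 and ERF4, which in Arabidopsis carry an EAR motif and repress transcription. It also holds genes of other names, such as ERF086, LEP and ESR1. Of the 12 group VIII genes, 9 were tested, and 2 were called higher (22.2%, against 4.37% of all genes) and 0 lower (against 3.83%). In 5 (55.6%, against 18.5% of all genes), every B deficiency library lay above every control library. At an unadjusted p under 0.05, limma gave 4 higher and 0 lower in this group, beside 4597 and 6518 of all 28129 genes tested. ERF 4-like LOC103931532 had 57.9, 75.7 and 60.8 FPKM in B deficiency, against 28.5, 27.1 and 26.3 FPKM in control roots (log2 fold change 1.23, standard error 0.103, adjusted p = 0.000235). ERF 4-like LOC103935001, the most abundant of the group, had 163.8, 228.8 and 155.6 FPKM in B deficiency, against 111.6, 105.0 and 109.1 FPKM in control roots (log2 fold change 0.73, adjusted p = 0.00775). Library 2 was the highest in both. ERF 8-like LOC103946012 had 9.80, 15.9 and 9.17 FPKM in B deficiency, against 5.41, 5.97 and 3.45 FPKM in control roots (log2 fold change 1.21, adjusted p = 0.0148), and it stayed under the minimum fold without B deficiency library 2 (0.96) or control library 3 (0.98). The 2 ERF 3-like genes overlapped between the groups, with log2 fold changes of -0.05 and 0.20.

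**Figure D4:**
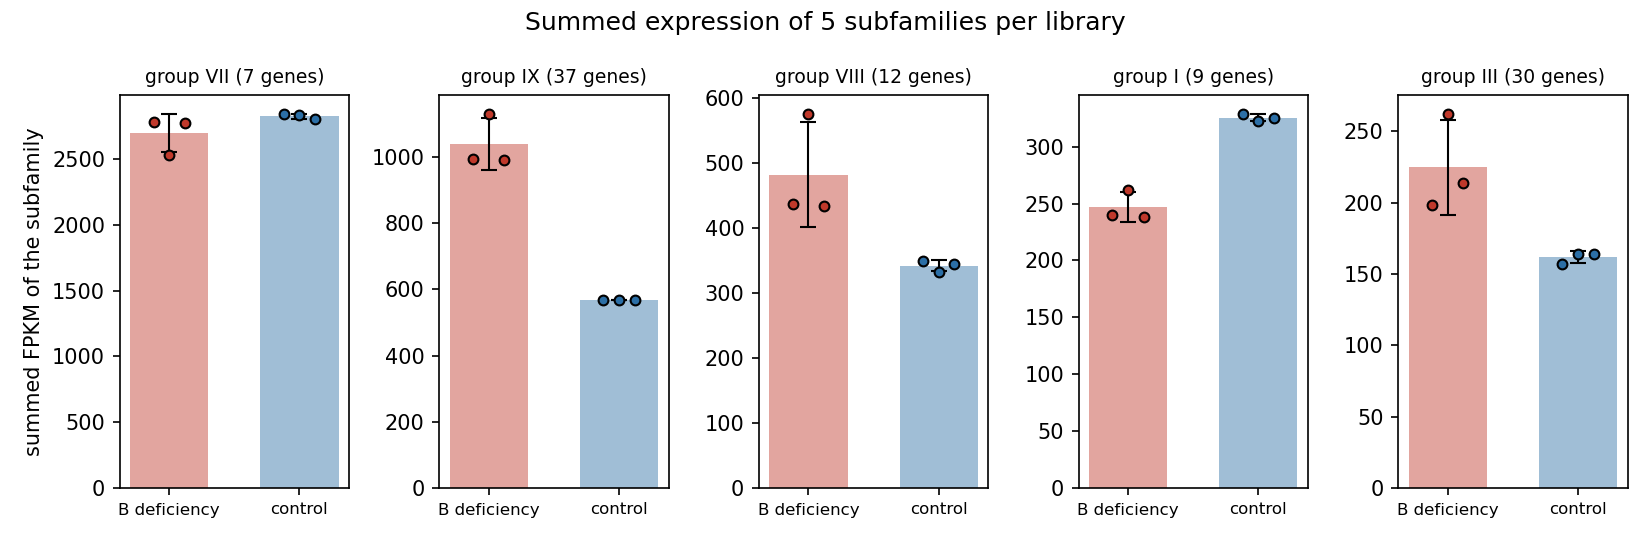
Summed FPKM of 5 subfamilies per library, as points over bars for the mean of 3 libraries with SD, B deficiency left of control, on axes that start at 0 and differ between panels. Group IX averaged 1039 ± 79.4 FPKM in B deficiency and 567.9 ± 0.625 FPKM in control roots, and group I averaged 246.8 ± 13.1 FPKM in B deficiency and 325.6 ± 3.21 FPKM in control roots.

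Of the 10 lower calls, 3 belonged to groups III and X, 1 to group VII, and the others to the AP2 type, group V, group I and the WRI and other AP2-like genes. In the AP2 type, 6 genes were tested, all named RAP2-7, which in Arabidopsis is the flowering repressor TOE1 and a target of a microRNA. In 5 of the 6 (83.3%, against 26.6% of all genes), every B deficiency library was below every control library. The median log2 fold change was -0.76. The most abundant, RAP2-7-like LOC103939328, was the exception, with 79.9, 72.2 and 82.1 FPKM in B deficiency, against 74.3, 79.0 and 78.8 FPKM in control roots (log2 fold change 0.01). RAP2-7-like LOC103966662 had 24.2, 19.0 and 24.5 FPKM in B deficiency, against 38.4, 40.4 and 37.8 FPKM in control roots (log2 fold change -0.79, adjusted p = 0.00166). Its fall was under the minimum fold, and the genes that passed it were scarcer.

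RAP2-7-like LOC103926659 had 3.15, 1.80 and 3.07 FPKM in B deficiency, against 5.38, 6.25 and 5.16 FPKM in control roots (log2 fold change -1.08, adjusted p = 0.0116). RAP2-7-like LOC125473730 had 0.64, 0.39 and 0.81 FPKM in B deficiency, against 1.67, 1.18 and 1.32 FPKM in control roots (log2 fold change -1.10, adjusted p = 0.0391). Both calls depended on single libraries. The log2 fold change of LOC103926659 was -0.82 without B deficiency library 2 and -0.99 without control library 2. Among the fits that left out a library, LOC125473730 kept its call only without B deficiency library 3, since its log2 fold change was -0.85 without B deficiency library 2 and its adjusted p was 0.0746 without B deficiency library 1 and 0.136, 0.0810 and 0.104 when control library 1, 2 or 3 was left out.

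In group V, whose members include the wax regulators WIN1 and SHINE and the potassium-starvation regulator RAP2.11 of Arabidopsis, 6 of 14 genes were tested. Of these, 1 was called higher (16.7%, against 4.37% of all genes) and 2 lower (33.3%, against 3.83%). RAP2-11-like LOC125478842 had 1.63, 3.77 and 3.16 FPKM in B deficiency, against 11.7, 11.5 and 13.9 FPKM in control roots (log2 fold change -2.15, standard error 0.283, adjusted p = 0.00169). RAP2-11-like LOC103931423 was near absent under B deficiency, with 0.06, 0.06 and 0.16 FPKM in B deficiency, against 1.02, 0.96 and 1.01 FPKM in control roots (log2 fold change -2.54, adjusted p = 0.00428). It was tested only through its control values, and without any of the control libraries its mean was under 0.5 FPKM. The most abundant gene of the group carries the same name. RAP2-11-like LOC103956275 had 19.3, 14.4 and 16.9 FPKM in B deficiency, against 13.8, 13.2 and 11.2 FPKM in control roots, and was not called (log2 fold change 0.40, adjusted p = 0.0569).

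ERF003 (LOC103953878), the higher call of group V, had 3.50, 1.96 and 1.76 FPKM in B deficiency, against 1.12, 1.3 and 0.65 FPKM in control roots (log2 fold change 1.14, adjusted p = 0.0453). Of the family's calls, it had the highest adjusted p. The call was kept without B deficiency library 2 and lost without any of the other libraries, with adjusted p between 0.0559 without B deficiency library 3 and 0.126 without control library 3.

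In group I, ERF062 (LOC103963497) was called lower, with 7.75, 8.17 and 8.72 FPKM in B deficiency, against 18.9, 18.7 and 18.7 FPKM in control roots (log2 fold change -1.18, standard error 0.075, adjusted p = 7.66e-05). The most abundant gene of the group, ERF060 (LOC103956153), had 110.2, 103.1 and 106.5 FPKM in B deficiency, against 164.5, 163.6 and 165.9 FPKM in control roots (log2 fold change -0.63, adjusted p = 0.000143). It was clearly below the control in every library but under the minimum fold. RAP2-4-like LOC103962212 and RAP2-13-like LOC103959049, the next in abundance, overlapped between the groups. Of the 7 group I genes tested, 1 was called lower (14.3%, against 3.83% of all genes) and 0 higher (against 4.37%). At an unadjusted p under 0.05 in limma, 3 of the 7 were lower and 1 higher. Over all 28129 genes tested, limma gave 6518 lower and 4597 higher at that p.

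Among the WRI and other AP2-like genes, 6 of 12 were tested and 1 was called lower (16.7%, against 3.83% of all genes). This was AP2-like At1g79700 LOC103938754, with 0.23, 0.19 and 0.21 FPKM in B deficiency, against 0.76, 1.01 and 0.92 FPKM in control roots (log2 fold change -1.68, adjusted p = 0.0108). It was tested only through its control values, and its mean was under 0.5 FPKM without control library 2 or 3. The most abundant gene here, AP2-like LOC103953224, had 4.84, 5.89 and 5.32 FPKM in B deficiency, against 6.03, 6.34 and 5.09 FPKM in control roots, and overlapped between the groups (log2 fold change -0.12).

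No gene was called in the ANT type, group IV or group VI. At an unadjusted p under 0.05, limma gave 1 higher and 4 lower, 0 in either direction, and 2 higher and 2 lower in these. Over all 28129 genes tested, it gave 4597 higher and 6518 lower. The ANT type contains the PLETHORA, BABY BOOM and AINTEGUMENTA genes, which in Arabidopsis maintain the root stem cells and promote organ growth. PLT2 LOC103963467, its most abundant gene, had 29.3, 30.4 and 28.4 FPKM in B deficiency, against 32.5, 32.7 and 32.7 FPKM in control roots (log2 fold change -0.15, adjusted p = 0.0784). Of the 11 ANT type genes tested, 5 had every B deficiency library below every control library (45.5%, against 26.6% of all genes) and 1 above (9.09%, against 18.5%). AIL5 LOC108868095 was the lowest of these, with 9.81, 8.18 and 10.9 FPKM in B deficiency, against 13.4, 15.5 and 14.2 FPKM in control roots (log2 fold change -0.58, adjusted p = 0.0119).

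Group IV holds the drought and heat regulators of the DREB2 type and ABI4. Only 4 of its 13 genes were tested, and in none of these were the groups apart. The most abundant, DREB 2H LOC103946962, had 14.97, 14.98 and 10.1 FPKM in B deficiency, against 18.1, 18.9 and 14.7 FPKM in control roots (log2 fold change -0.38, adjusted p = 0.149). Group VI contains the cytokinin response factors (CRF). Its 9 tested genes ranged in log2 fold change from -0.91 to 0.57, and the most abundant, ERF118-like LOC103947143, had 14.5, 17.3 and 14.97 FPKM in B deficiency, against 18.2, 15.4 and 16.4 FPKM in control roots (-0.10). Just under the minimum fold, CRF6-like LOC103938757 had 0.92, 1.33 and 0.78 FPKM in B deficiency, against 2.33, 1.78 and 1.78 FPKM in control roots (log2 fold change -0.91, adjusted p = 0.0341).

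Of the 59 members that were not tested, 15 were listed at 0 in all libraries. The other 44 had a value in some library. In 9 of these each B deficiency library exceeded every control library, and in 4 each lay below. The matching share over all untested genes was not computed, so these counts give no result about the members. When all genes with any value were tested, 4 of the 44 were called higher and 2 lower. Over all 33820 genes in that fit, 1503 were called higher and 1248 lower. ERF019-like LOC103928183 had 0.38, 0.28 and 0.59 FPKM in B deficiency, against 0.09, 0 and 0 FPKM in control roots, and ERF019-like LOC103928184 had 0.84, 0.43 and 0.26 FPKM in B deficiency, against 0.13, 0 and 0 FPKM in control roots. SHINE 2-like LOC103964489 had 0.35, 1.04 and 0.85 FPKM in B deficiency, against 0.23, 0.16 and 0 FPKM in control roots. DREB 1A-like LOC103966480 was listed at 0.58, 0.10 and 0.35 FPKM in B deficiency and at 0 in every control library. The ERF019 and DREB 1A genes belong to group III. In the other direction stood DREB 1B-like LOC103944290, with 0, 0.13 and 0 FPKM in B deficiency, against 0.93, 0.23 and 0.57 FPKM in control roots, and AP2-like LOC103934834, with 0.08, 0.11 and 0.03 FPKM in B deficiency, against 0.41, 0.41 and 0.27 FPKM in control roots. At such levels a few fragments decide a value.

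B deficiency library 2, which stood apart over all genes, gave the highest value in 17 of the 27 members called higher (62.96%), and in 616 of the 1229 genes called higher over all (50.1%). Without it, 24 of the 27 higher calls and 8 of the 10 lower calls were kept. The calls lost were those of ERF 1B-like LOC103931812, ERF 8-like LOC103946012 and ERF021-like LOC103947945 among the rises and of the RAP2-7-like genes LOC103926659 and LOC125473730 among the falls. Of the 37 calls, 28 were made in all 15 alternative fits, 22 of them higher and 6 lower.

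Genes of the same name did not always move alike. Of 33 names carried by at least 2 tested genes, those with every gene called in the same direction were ERF 1, ERF 5, ERF017, ERF021 and ERF109, each with 2 tested genes and all higher, the ERF021 genes being tested only through their B deficiency values. Under the name RAP2-11, 4 tested genes ranged in log2 fold change from -2.54 to 0.40, and under ERF113, 4 ranged from -2.12 to 0.76.

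Some AP2 domain genes have other descriptions and fell outside the choice by name. Of 36 such relatives, 27 were tested, with a median log2 fold change of 0.13. Of these, 7 were called higher (25.9%, against 4.37% of all genes) and 1 lower (3.70%, against 3.83%). The 3 largest called rises were genes named after CBF or DREB proteins. CBF/DREB 3 LOC103931849 had 4.85, 9.29 and 3.93 FPKM in B deficiency, against 0.55, 0.22 and 0.87 FPKM in control roots (log2 fold change 3.29, adjusted p = 0.00239). DREB protein LOC103960521 had 9.85, 17.9 and 9.71 FPKM in B deficiency, against 1.96, 1.01 and 1.40 FPKM in control roots (log2 fold change 3.00, adjusted p = 0.000543). C-repeat binding factor 2 LOC103954111 had 2.69, 11.8 and 2.96 FPKM in B deficiency, against 0.63, 0.54 and 0.63 FPKM in control roots (log2 fold change 2.74, adjusted p = 0.00869), library 2 being far above the others. LOC103935996, which the annotation gives only as a hypothetical protein with an AP2 domain, had 25.8, 33.5 and 25.7 FPKM in B deficiency, against 6.49, 6.66 and 6.93 FPKM in control roots (log2 fold change 2.05, adjusted p = 4.91e-05). The study lists this gene among its ERF genes with higher expression. The others on that list are all members called higher here, namely LOC103947947, LOC103950248, LOC103955515, LOC103932979, LOC103929680, LOC103928186, LOC103941900, LOC103959790 and LOC103953878. PTI5-like LOC103944140, named after a tomato activator of defence genes, was called as well (log2 fold change 1.12, adjusted p = 0.000156). The fall was that of another hypothetical protein, novel309 (log2 fold change -1.03, adjusted p = 0.0161).

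Ethylene synthesis genes had calls in both directions, and signal relay genes had 0 higher calls. Of 43 ethylene synthesis genes, 31 were tested, with a median log2 fold change of 0.39. Of these, 9 were called higher (29.0%, against 4.37% of all genes) and 4 lower (12.9%, against 3.83%). ACC synthase, the enzyme that usually limits ethylene synthesis, had 3 higher and 0 lower calls among 5 tested genes, ACC oxidase had 5 higher and 2 lower among 18, and genes described as ACC oxidase homologs, whose substrate is often unknown, had 1 higher and 2 lower among 8. The minimum FPKM was reached only through the B deficiency libraries by 2 of the 3 ACC synthase genes called higher, LOC103951619 and LOC103929658, and only through the control libraries by 2 of the 4 genes called lower, ACC oxidase 1 LOC103948231 and ACC oxidase homolog LOC103942546. ACC synthase LOC103935793 had 5.44, 4.66 and 4.99 FPKM in B deficiency, against 1.37, 1.02 and 1.3 FPKM in control roots (log2 fold change 1.95, adjusted p = 0.000242). The largest rise was that of ACC synthase 8-like LOC103951619, with 1.58, 0.61 and 1.90 FPKM in B deficiency, against 0.10, 0.06 and 0 FPKM in control roots (log2 fold change 3.18, adjusted p = 0.0058). ACC oxidase LOC103954990 had 180.7, 165.1 and 181.2 FPKM in B deficiency, against 64.5, 62.1 and 65.0 FPKM in control roots (log2 fold change 1.46, standard error 0.055, adjusted p = 1.22e-05). The largest fall was that of ACC oxidase 1 LOC103948231, with 0.42, 0.50 and 0.48 FPKM in B deficiency, against 2.48, 2.13 and 2.54 FPKM in control roots (log2 fold change -2.13, adjusted p = 0.000557).

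None of the 8 ethylene receptor and receptor-associated genes was called. With no minimum fold, 4 were higher and 1 lower at an adjusted p under 0.05 and, in limma, also at an unadjusted one. Over all genes, 12% were higher and 15.4% lower at that adjusted p. Ethylene response sensor 1 LOC103967194 had 23.5, 27.3 and 25.4 FPKM in B deficiency, against 13.8, 15.1 and 16.3 FPKM in control roots (log2 fold change 0.75, adjusted p = 0.00109). The most abundant receptor, LOC125478637, had 51.9, 64.0 and 49.1 FPKM in B deficiency, against 76.4, 78.8 and 80.9 FPKM in control roots (log2 fold change -0.53, adjusted p = 0.00778). Of the 17 signal relay genes tested, 2 were called lower (11.8%, against 3.83% of all genes) and 0 higher (against 4.37%). With no minimum fold, 8 were lower and 0 higher, where the share over all genes was 15.4% and 12%. At an unadjusted p under 0.05, limma had 10 relay genes lower and 0 higher, beside 6518 and 4597 of all 28129 genes tested. The calls were an EIN3-like 4 gene, LOC103967031, with 0.14, 0.39 and 0.35 FPKM in B deficiency, against 1.06, 0.88 and 1.28 FPKM in control roots (log2 fold change -1.63), tested only through its control values, and CTR1 LOC103964928, with 0.85, 0.91 and 0.78 FPKM in B deficiency, against 2.57, 2.40 and 2.65 FPKM in control roots (log2 fold change -1.48). The abundant EIN3-like 1 gene LOC103933394 had 42.2, 50.1 and 47.2 FPKM in B deficiency, against 83.0, 82.1 and 81.0 FPKM in control roots (log2 fold change -0.82, adjusted p = 0.000259). The relay list holds CTR1, which is active while no ethylene is bound, beside EIN2, EIN3-like and EIN3-binding F-box genes. Its falls therefore do not give a single direction of signalling.

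**Figure D5:**
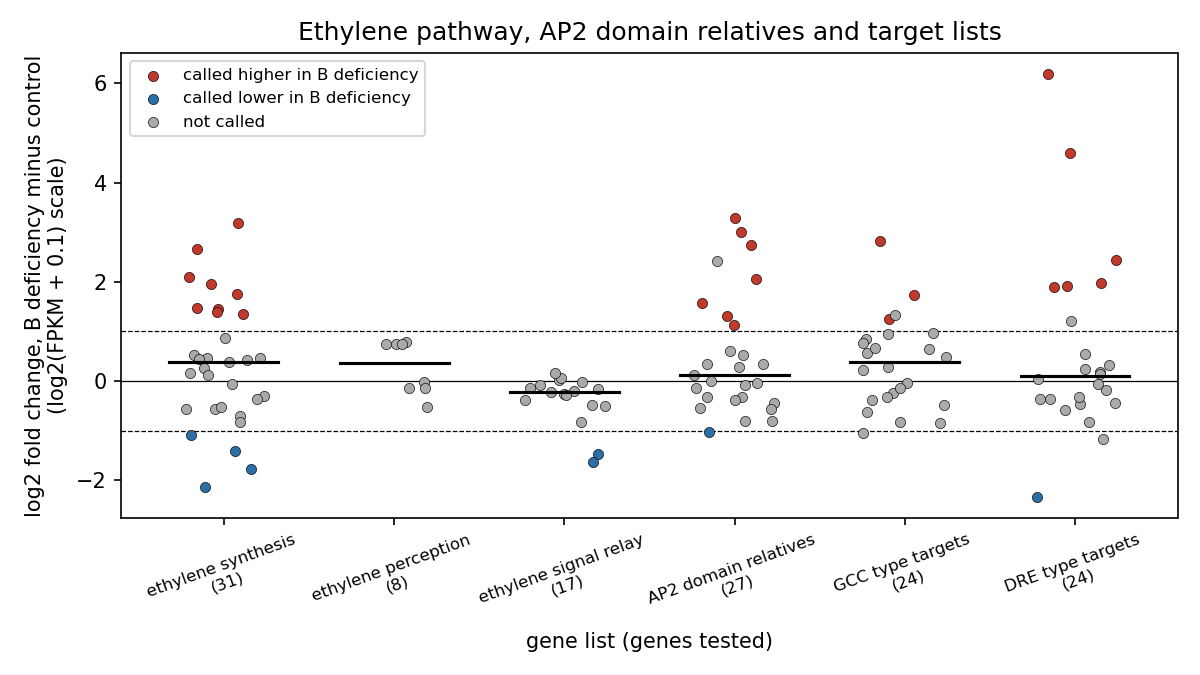
Log2 fold change (B deficiency minus control, on the log2(FPKM + 0.1) scale) of each tested gene of the ethylene pathway and 3 other lists. These are AP2 domain relatives outside the choice by name and genes listed by description as candidate GCC or DRE targets. The median is a bar and the minimum fold of 1 is shown as dashed lines. Ethylene synthesis has 9 higher and 4 lower calls, signal relay has 0 higher and 2 lower, and the largest rise is a dehydrin at 6.19.

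Candidate targets were listed by words in their descriptions, after kinds of genes known in Arabidopsis or other plants to include carriers of GCC or DRE elements. A listed gene need not be a target, and whether the pear promoters hold these elements was not analysed here. Of 63 genes of the GCC type, such as chitinases, osmotins and other pathogenesis-related proteins, 24 were tested, with a median log2 fold change of 0.38. Of these, 3 were called higher (12.5%, against 4.37% of all genes) and 0 lower (against 3.83%). At an unadjusted p under 0.05, limma had 11 lying higher and 3 lower, beside 4597 and 6518 of all 28129 genes tested. All 3 called were endochitinases, which degrade fungal cell walls, and LOC103936532 among them was tested only through its B deficiency values. Endochitinase-like LOC103936531 had 25.4, 14.5 and 25.6 FPKM in B deficiency, against 3.70, 2.56 and 2.63 FPKM in control roots (log2 fold change 2.81, adjusted p = 0.000283).

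Of 45 genes of the DRE type, 24 were tested, with a median log2 fold change of 0.09. Of these, 6 were called higher (25%, against 4.37% of all genes) and 1 lower (4.17%, against 3.83%). Dehydrin COR47-like LOC125472441, from a family that protects cells in cold and drought, had 10.9, 11.2 and 13.2 FPKM in B deficiency, against 0.33, 0 and 0 FPKM in control roots (log2 fold change 6.19, adjusted p = 0.000315), and was tested only through its B deficiency values. Dehydrin DHN3-like LOC103937812 had 98.0, 66.8 and 102.7 FPKM in B deficiency, against 15.2, 16.8 and 16.4 FPKM in control roots (log2 fold change 2.43, adjusted p = 8.44e-05). The other 4 rises were genes named after Arabidopsis At1g64065, a hydroxyproline-rich glycoprotein of the late embryogenesis abundant annotation that is not a dehydrin. Among these, LOC103958251 had 65.9, 101.1 and 69.0 FPKM in B deficiency, against 3.72, 2.95 and 2.75 FPKM in control roots (log2 fold change 4.59, adjusted p = 1.59e-05). The fall was that of galactinol synthase 2-like LOC103959028, which makes a precursor of raffinose sugars, with 0.23, 0.34 and 0.56 FPKM in B deficiency, against 2.06, 2.10 and 2.46 FPKM in control roots (log2 fold change -2.33, adjusted p = 0.00193), and was tested only through its control values. Galactinol synthase 2 LOC103961259, too scarce to be tested, lay the other way, with 0.50, 1.15 and 0.71 FPKM in B deficiency and 0 in every control library.

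Allene oxide cyclase, an enzyme of jasmonate synthesis, had 3 genes, all tested. LOC103947801 was called lower, with 64.3, 69.6 and 72.1 FPKM in B deficiency, against 141.5, 131.4 and 139.4 FPKM in control roots (log2 fold change -1.001, adjusted p = 6.5e-05). This fall barely passed the minimum fold, and the study, with its own test, reported no significant change in the genes of this enzyme. The other 2 had log2 fold changes of -0.22 and 0.02.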

How the data were processed

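RNA-seq was analysed for 6 root tip libraries, 3 of B deficiency and 3 of the control, grouped by the sample titles. Control columns were matched to the titles by number, the labels' own short names being lettered. The deposited values are FPKM, which the authors estimated with RSEM after mapping filtered reads with STAR to the *P. bretschneideri* genome. The submitters' processing notes name HISAT2, Cufflinks 2.2.1 and DESeq2 instead. Which annotation release was used was not given in the sources used here. These FPKM were deposited by the authors in 2 tables with identical library columns, and 4 columns of the authors' group means and ratios were not used.

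Members and gene lists were chosen with earlier results of these data known. Expression was compared with limma 3.58.1 in R 4.3.3 (eBayes with trend, no covariate) on log2(FPKM + 0.1), with a minimum mean of 0.5 FPKM and Benjamini-Hochberg adjustment over 28129 genes. The thresholds were those of the methods, whose count test needs counts. The step was tested on simulated libraries with known changes. The changed genes had control means of at least 1 FPKM and changes beyond the minimum fold, with equal noise in all libraries. Recovery of scarcer genes, of changes near the minimum fold, or with an outlying library was not tested.

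Named genes were every called member, the most abundant member of each subfamily, members named ERF017 or ERF018, ERF genes named by the study, and the largest rise and fall of each related list. Other genes were added after their values were seen, namely genes just under the minimum fold, same-named or abundant genes that were not called, untested genes, and further genes of the related lists. The split of ethylene synthesis into enzymes was made after the descriptions were seen.

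FPKM carry no counts, so the depth behind a value is unknown beyond its steps, and no counting interval is given. With 3 libraries against 3, an exact permutation test cannot go below p = 0.1. Alternatives were pseudocounts of 1 and 0.01, no minimum FPKM or 1 FPKM, quantile normalization, median-of-ratios scaling, library weights, no trend, a replicate block, no minimum fold, and each library left out. Python 3.11.15, pandas 2.3.3 and matplotlib 3.10.9 were used for the other steps. Sequences, comparisons of gene copies by protein and promoter motifs were not analysed here.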

Additional observations from a re-analysis of the deposited data

How the results depend on the processing

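No called member changed sign under any alternative run. Against 27 members called higher, 25 to 27 were called when a library was left out, 23 with log2(FPKM + 1), 30 with no minimum FPKM and 26 with the replicate number as a block. Of the 27 themselves, 24 or 25 kept their call when a library was left out and 26 with no minimum FPKM. Same-numbered libraries did not deviate together (correlations of 0.0403, 0.0349 and -0.00477), so the numbers were not taken as pairs. Low FPKM limits the scarce members most. With log2(FPKM + 1), 4 of the 27 higher calls and 4 of the 10 lower calls were lost. The lost calls were not only those of the scarcest members. LOC103926659, with means of 2.67 FPKM in B deficiency and 5.60 FPKM in control roots, lost its lower call (log2 fold change -1.08 with log2(FPKM + 0.1)). The scarcer LOC103951091, with means of 0.41 and 2.26 FPKM in these groups, kept its lower call (-2.23). The causes of these and the other changes were not tested.

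Lower calls changed more than higher ones. Of the members, 6 were called lower with log2(FPKM + 1), 20 with no minimum fold, and 6 to 10 with a library left out. For the AP2 type, 0 were called lower with log2(FPKM + 1), 1 with a minimum of 1 FPKM, 0 with library weights, 1 with the replicate block, 4 with no minimum fold, and 0 to 2 with a library left out. For WRI and other AP2-like genes, it was 0 with log2(FPKM + 1), 2 with no minimum FPKM, 0 with a minimum of 1 FPKM, and 0 to 1 with a library left out. Group I had 2 and group VII had 4 lower with no minimum fold. Group III had 2 lower with no minimum FPKM, with library weights and with the replicate block, and 1 to 2 with a library left out. Group V had 1 lower with log2(FPKM + 1) or a minimum of 1 FPKM and 1 to 2 with a library left out, and 0 higher with log2(FPKM + 1) or no trend and 0 to 1 with a library left out. Group VI had 1 lower with library weights or no minimum fold and 0 to 1 with a library left out. Group IX had 19 higher with no minimum fold, and group VIII had 1 to 2 higher with a library left out.

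The ethylene pathway had 17 higher and 19 lower with no minimum fold, and 3 lower with log2(FPKM + 1). The AP2 domain relatives had 0 lower with log2(FPKM + 1), median-of-ratios scaling, quantile normalization or library weights, 6 with no minimum fold, and 0 to 1 with a library left out. The GCC type targets had 6 higher with library weights, 7 with no minimum fold and 3 to 5 with a library left out, and 1 lower with library weights, the replicate block or no minimum fold and 0 to 1 with a library left out. The DRE type targets had 2 lower with library weights and 5 with no minimum fold.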
